A study of Mus musculus with 2 samples.

Results

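Saa3 and a set of local acute-phase genes were followed in mouse back skin. The set holds 10 genes chosen by name, because Saa3 was among the transcripts with the highest differences after FGF18, and the question was whether other acute-phase and IL-6 response genes showed the same. The value of Saa3 therefore chose the theme and is given as a description. Of the 10 genes 8 had a transcript cluster with a single symbol and were measured, among 22180 such genes on the array. Saa1 shared its only cluster with Saa2, and C3 had no cluster in the annotation used here and was not analysed here.

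The skin came from male BALB/cAJcl mice aged 7 weeks, with 1 array for a saline control and 1 array for FGF18, a fibroblast growth factor given as protein. For FGF18, the series text describes hair removal, which starts the growth phase of follicles, then 100 µg of FGF18 in saline with heparin (5 µg/µl) into the peritoneum 6 days later. Whole-body γ-irradiation at 6 Gy followed 24 h after the injection, and the skin was taken 4 h after that. The number of mice behind a sample is not stated, nor are the control's own irradiation, heparin and time since hair removal, so FGF18, radiation, heparin and hair cycle stage cannot be told apart as the source of a difference. There were no replicates, so all differences compare 2 arrays, without a test of significance.

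Acute-phase proteins are secreted in large amounts when tissue is injured or infected. IL-6 binds its receptor together with gp130, the product of Il6st, and JAK kinases then activate STAT3, while interleukin-1 and tumour necrosis factor act through NF-kB. C/EBP factors cooperate with both on acute-phase promoters. Saa1 and Saa2 are known mainly from liver, whereas Saa3 is known as the serum amyloid A gene of cells outside the liver, such as macrophages, fat cells and epithelia.

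Promoters are shown for the 3 Saa genes because Saa3 led the set while the clusters of Saa1 and Saa2 were dim on both arrays, and for Nfkbia and Socs3 because they are the feedback genes of the NF-kB and STAT3 pathways. RefSeq promoters (GRCm38.p6) matched 9 of the 10 genes, and Hp was the one without an entry. Each sequence is the 250 bases before the annotated start, read in the direction of the gene: chr7:46715677-46715926 (minus strand) for Saa3, chr7:46742981-46743230 (minus strand) for Saa1, chr7:46751583-46751832 (plus strand) for Saa2, chr12:55492648-55492897 (minus strand) for Nfkbia and chr11:117969367-117969616 (minus strand) for Socs3. Capitals mark matches on either strand to TTNNGNAA (C/EBP) in the Saa genes, to GGGNNTTNC (NF-kB, shortened by its last letter) in Nfkbia and to TTCNNNGAA (STAT) in Socs3.
Saa3: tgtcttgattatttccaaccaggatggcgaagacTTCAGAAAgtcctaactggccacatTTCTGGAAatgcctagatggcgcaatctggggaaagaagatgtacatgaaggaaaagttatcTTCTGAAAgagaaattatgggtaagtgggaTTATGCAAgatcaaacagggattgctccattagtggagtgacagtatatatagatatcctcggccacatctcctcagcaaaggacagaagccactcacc
Saa1: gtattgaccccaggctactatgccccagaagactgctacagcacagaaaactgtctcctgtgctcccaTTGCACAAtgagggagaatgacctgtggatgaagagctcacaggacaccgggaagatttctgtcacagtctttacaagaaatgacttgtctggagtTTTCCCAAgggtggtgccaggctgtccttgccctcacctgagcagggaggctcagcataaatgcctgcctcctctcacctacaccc
Saa2: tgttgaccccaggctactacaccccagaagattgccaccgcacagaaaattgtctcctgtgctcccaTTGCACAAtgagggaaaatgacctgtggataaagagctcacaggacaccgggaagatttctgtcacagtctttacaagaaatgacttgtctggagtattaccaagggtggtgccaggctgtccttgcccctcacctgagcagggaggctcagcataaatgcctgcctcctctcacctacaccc
Nfkbia: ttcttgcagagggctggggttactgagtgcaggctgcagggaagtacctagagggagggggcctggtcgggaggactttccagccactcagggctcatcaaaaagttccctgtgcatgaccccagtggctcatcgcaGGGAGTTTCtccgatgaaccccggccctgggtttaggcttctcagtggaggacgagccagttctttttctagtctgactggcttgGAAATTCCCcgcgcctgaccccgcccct
Socs3: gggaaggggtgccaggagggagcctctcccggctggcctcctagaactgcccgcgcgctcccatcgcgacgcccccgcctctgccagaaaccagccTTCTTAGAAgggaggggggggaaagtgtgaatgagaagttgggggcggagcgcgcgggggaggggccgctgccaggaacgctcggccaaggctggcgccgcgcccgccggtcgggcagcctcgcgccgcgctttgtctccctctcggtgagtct

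The Saa3 window held 4 C/EBP matches, those of Saa1 and Saa2 held 2 and 1, and that of C3 held 3. Of 32851 promoters 36.8% had at least 1 such match, 10.9% at least 2, 2.61% at least 3 and 0.591% at least 4. The Saa3 match nearest to the start, TTATGCAA, began 99 bases upstream. Saa1 and Saa2 both carried TTGCACAA, which began 182 and 183 bases upstream. The windows of Saa1 and Saa2 were identical at 94.8% of 251 aligned positions, whereas Saa3 matched them at 48.2% and 48.0%. The STAT match of Socs3, TTCTTAGAA, began 154 bases upstream, and 7.02% of promoters had one. At least 1 NF-kB match stood in 13.0% of promoters and at least 2 in 1.35%. Among the members Nfkbia held 2, which began 113 and 28 bases upstream, and Il6 held 1, which began 44 bases upstream. These matches are letters in a window, and binding of a factor was not measured. No window of a member held matches to these motifs that overlapped.

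Saa3 read 16.7 in saline and 88.0 after FGF18. Every difference is the FGF18 value less the saline value of log2(intensity + 1), which understates the folds of dim genes, and that of Saa3 was 2.33, or 5.04-fold higher. Of 11090 genes at or above the median level (mean log2 value of 4.15), 1 gene had a higher difference. The saline value of Saa3 was close to the middle of the array, above 49.7% of genes, and the FGF18 value was above 91.8%. The saline value alone, 4.14 on the log2 scale, lay just below the median over genes of 4.16, so Saa3 passed the level filter through its FGF18 value. With a pseudocount of 16 the difference was 1.67, or 3.18-fold.

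The clusters of the other serum amyloid A genes were dim on both arrays. Saa2, an acute-phase apolipoprotein gene, read 2.84 in saline and 3.28 after FGF18, with 1.98% and 4.50% of genes dimmer. The cluster shared by Saa1 and Saa2 read 3.40 and 3.43. Saa4, the serum amyloid A gene known as constitutive rather than inducible, read 9.42 and 10.7. All of these lay below their array's median intensity of 14.0 (saline) or 13.8 (FGF18), so they are not shown above background and no fold is given. A dim reading can also come from a weak probe set, which these data cannot separate from low RNA.

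**Figure D1:**
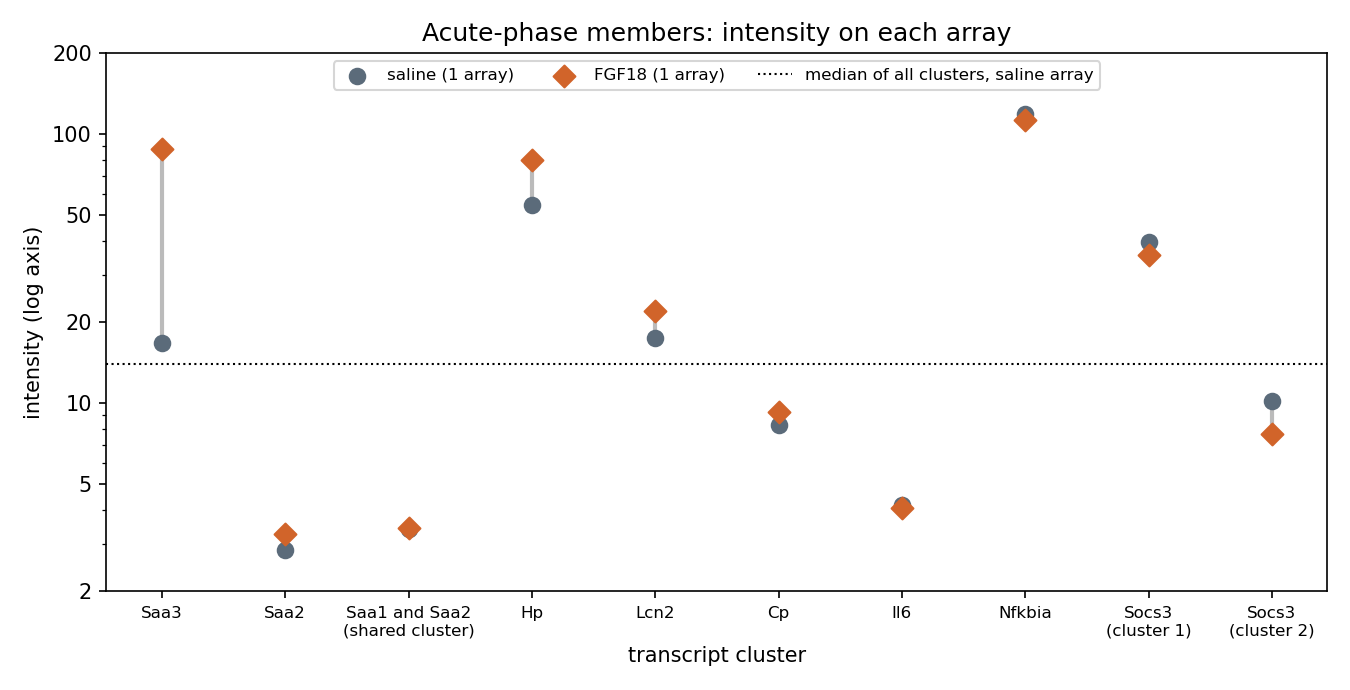
Intensity (log axis) of each transcript cluster of the members on the saline array (circles) and the FGF18 array (diamonds), with the saline array's median of 14.0 as a dotted line. Saa3 spans 16.7 to 88.0, Hp 54.4 to 79.8, and the other clusters lie close together on both arrays.

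The difference at Saa3 was not shared by the genes around it. On chromosome 7 the 6 protein-coding genes before Saa3 and the 8 after it include the other Saa genes. The 11 neighbours that are not Saa genes had differences from -0.38 to 0.44. The lowest was Saal1, which lies next to Saa3 and encodes a serum amyloid A-like protein, and the highest was Gtf2h1, a subunit gene of a general transcription factor. Of the 7 such neighbours at or above the median level, 0 reached 1.5-fold in either direction. Of all genes at that level 3.64% were 1.5-fold higher and 4.63% lower, so a count of 0 among 7 is near those shares.

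**Figure D2:**
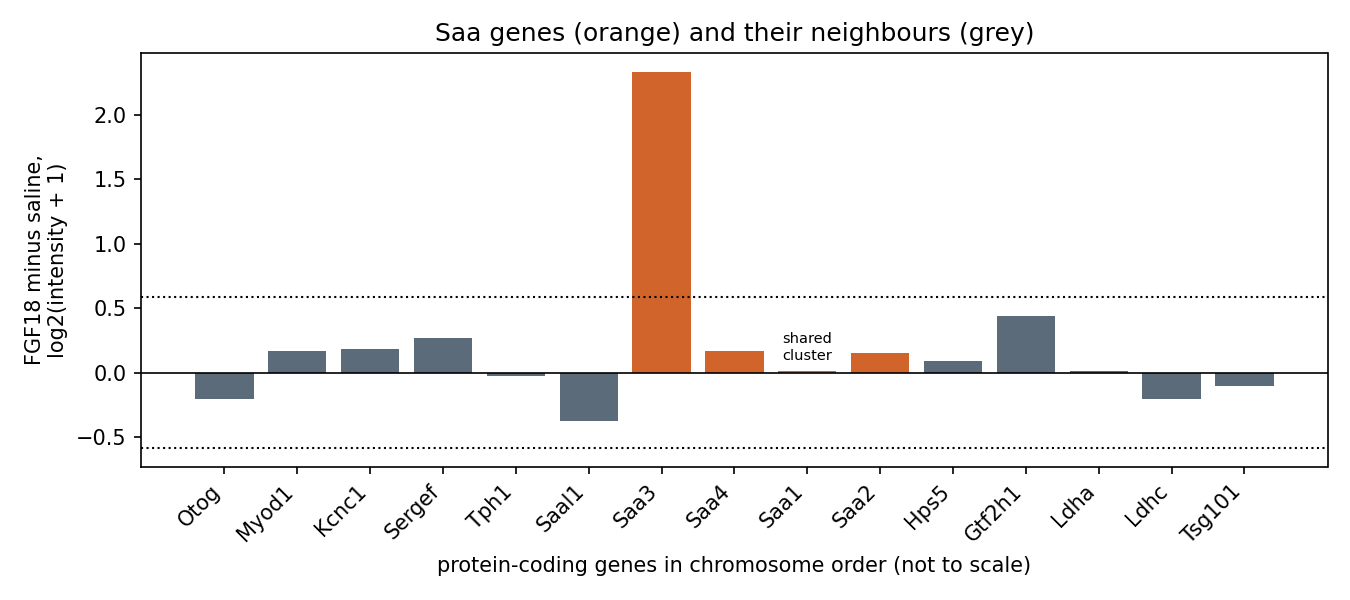
Difference (FGF18 minus saline, log2(intensity + 1)) for Saa genes (orange) and neighbouring protein-coding genes (grey) in chromosome order, with dotted lines at 1.5-fold. Saa3 stands at 2.33, and the 11 neighbours that are not Saa genes lie between -0.38 and 0.44.

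Among the 8 measured genes of the set, haptoglobin had the next highest difference after Saa3. Hp, whose product binds free haemoglobin, read 54.4 in saline and 79.8 after FGF18, a difference of 0.54 or 1.46-fold, and 500 genes (4.51%) had a higher one. It was bright on both arrays and lay just under the 1.5-fold threshold. Lcn2, which encodes lipocalin 2, a protein that withholds iron from bacteria by binding their siderophores, read 17.4 and 21.9. Its difference was 0.32 or 1.25-fold, and 1980 genes (17.9%) had a higher one. Cp, the gene of the copper-carrying ferroxidase ceruloplasmin, read 8.31 and 9.28, below the median of both arrays. Separate clusters of 1 gene disagreed with a standard deviation of 0.24 over 319 symbols with at least 2 clusters at that level. That figure covers probe sets and not animals, and the difference of Lcn2 was little larger than it.

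The feedback inhibitors were slightly lower after FGF18, and Il6 was too dim to give a direction. Il6, the gene of the inducing cytokine, read 4.19 in saline and 4.06 after FGF18, with 7.27% and 8.07% of genes dimmer, and the sign of its difference turned after trend subtraction (0.03). Nfkbia, the NF-kB inhibitor that NF-kB itself induces, read 119 and 112, a difference of -0.08. Socs3, the inhibitor that STAT3 induces to shut off IL-6 signalling, had 2 clusters. The brighter read 39.8 and 35.4 and the dimmer 10.2 and 7.67, and both were lower after FGF18. The dimmer lay below the median of both arrays. The average of the 2 clusters gave Socs3 a difference of -0.27. That is little larger in size than the standard deviation of 0.24 between clusters of 1 gene, and the difference of Nfkbia is smaller than it.

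Of the 7 measured members other than Saa3, 4 were higher and 3 lower after FGF18, with differences from -0.27 to 0.54 and a median of 0.14. The median over all 22180 genes was 0.00. Over the 4 of these that reached the median level it was 0.12, and over all genes at that level 0.07. The median of the 7 was 0.03 with a pseudocount of 16 and 0.08 when clusters of several symbols were counted under the first. Of the 8 measured members 5 lay at or above the median level, namely Saa3, Hp, Lcn2, Nfkbia and Socs3, and Saa3 did so through its FGF18 value. At 1.5-fold, 1 of these 5 was higher (Saa3, which chose the theme), and 3.64% of all genes at that level were. In the other direction it was 0 of 5, with 4.63% of all genes. At 2-fold the count was again 1, and the shares of all genes were 0.379% higher and 1.65% lower.

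**Figure D3:**
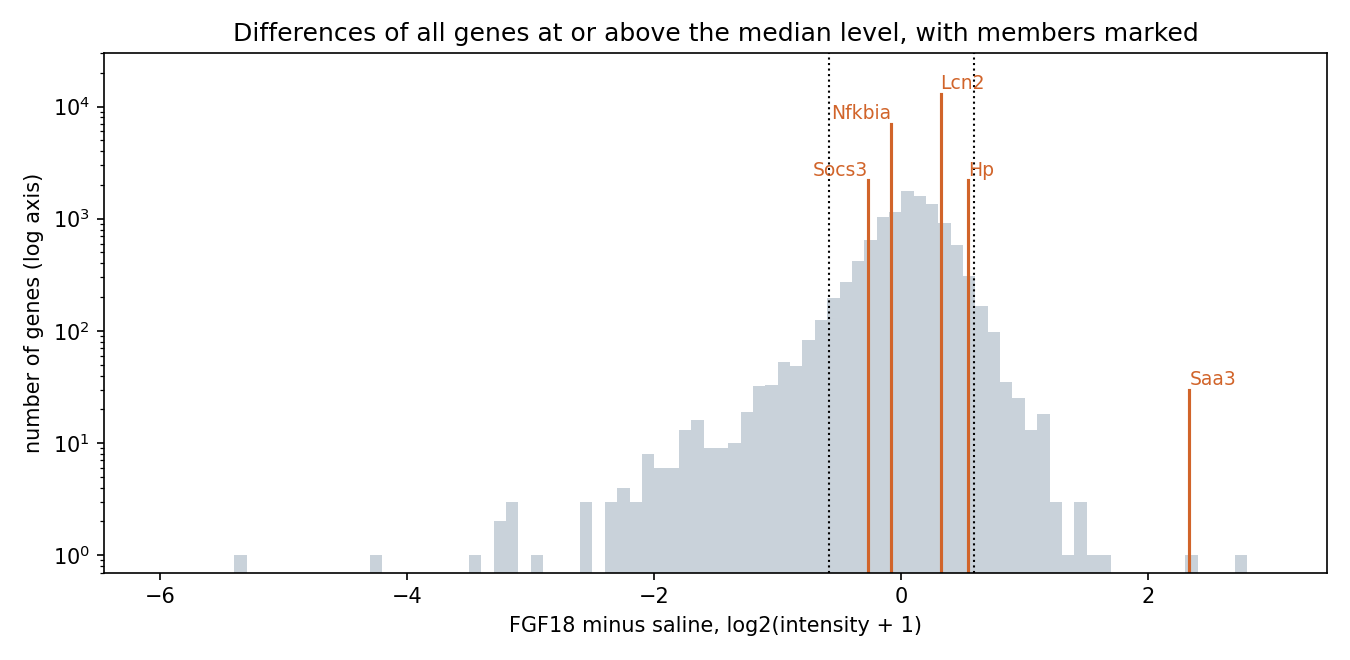
Number of genes (log axis) by difference (FGF18 minus saline, log2(intensity + 1)) for the 11090 genes at or above the median level, with dotted lines at 1.5-fold and the 5 members at that level marked. Saa3 lies at 2.33 in the right tail, while Hp (0.54), Lcn2 (0.32), Nfkbia (-0.08) and Socs3 (-0.27) lie within the bulk.

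The 5 genes named as nearest to Saa3 in difference were not acute-phase genes. Predicted, RIKEN, microRNA and small nucleolar genes were left out of this choice. By the gap between differences over the 2 arrays, the 5 were the chemokine gene Cxcl13 (2.73), the pyruvate dehydrogenase kinase gene Pdk4 (1.63), the ubiquitin ligase genes Fbxo32 (1.52) and Trim63 (1.44) and the imprinted gene Peg3 (1.43). Cxcl13 read 23.8 and 163, and Pdk4 read 78.4 and 245. The gaps to Saa3 ran from 0.39 for Cxcl13 to 0.90 for Peg3.

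The wider pathway was described by 11 lists with 202 genes, of which 185 were measured and 107 lay at or above the median level. At 1.5-fold, 7 of these 107 genes were higher (6.54%, with 3.64% of all genes at that level) and 5 were lower (4.67%, with 4.63% of all genes). With a pseudocount of 16 or after subtraction of a loess trend the 7 became 4, namely Serpina3n, Slc39a14, Pdk4 and Zbtb16. The full 7 were Serpina3n, Slc39a14, Il6st, Cntfr, Cd36, Pdk4 and Zbtb16, and the 5 were Orm1, Il1a, Il18, Hmox1 and Slc11a2. Pdk4 and Zbtb16 belong to the glucocorticoid list, a group that earlier results of these data had already shown. The share of 6.54% is therefore a description and not independent of these values.

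Other acute-phase proteins went both ways. Serpina3n, a secreted serine protease inhibitor of the acute phase, read 40.1 in saline and 90.7 after FGF18, 2.23-fold higher. Orm1, the gene of the plasma protein orosomucoid, read 156 and 47.4, 3.24-fold lower, so a bright acute-phase transcript had the opposite direction to Saa3. The 32 measured genes of this list, 17 higher and 12 lower, had a median difference of 0.08. The metallothionein gene Mt2 was 1.49-fold higher (1392 and 2078) and Il1rn, the interleukin-1 receptor antagonist gene, 1.39-fold lower. Only 8 of the 32 lay at or above the median level, 1 of them 1.5-fold higher and 1 lower. The shares of all genes at that level were 3.64% higher and 4.63% lower.

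Of the IL-6 receptor chain genes, Il6st was higher and Il6ra near equal. Il6st, the shared gp130 chain, read 52.6 and 79.7, a difference of 0.59 or 1.51-fold, just past the threshold. Il6ra, the chain that binds IL-6, read 73.3 and 74.1. Cntfr, the receptor gene of ciliary neurotrophic factor, was 1.56-fold higher (28.6 and 45.2), while the cytokine gene Ctf1 and the receptor gene Il27ra stood at -0.22 and -0.07. The IL-6 family had 14 measured genes, 7 higher and 4 lower, and their median difference was 0.01. Neither Il6st nor Cntfr was 1.5-fold higher after trend subtraction or with a pseudocount of 16.

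Genes of the signal cascade differed by small amounts in both directions. Stat3 read 97.1 and 74.0, a difference of -0.39, and the kinase gene Jak1 read 131 and 102, a difference of -0.36. The phosphatase gene Ptpn11 and the STAT inhibitor gene Pias1 stood at 0.20 and 0.22. The list of 11 JAK and STAT genes had a median of -0.11 (-0.21 after trend subtraction and -0.02 with clusters of several symbols). All 11 lay at or above the median level, and 0 reached 1.5-fold in either direction. Of all genes at that level 3.64% were 1.5-fold higher and 4.63% lower, so 0 of 11 is near those shares. The 7 other SOCS genes, which are feedback inhibitors like Socs3, had a median of -0.21, from Socs1, which read 11.9 and 9.5, to Socs7 at 0.15. At or above the median level Socs6 and Cish stood at -0.25 and -0.22 and Socs4 at 0.03.

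Genes known to respond to STAT3 showed no common direction. The median over 22 measured genes, 13 higher and 9 lower, was 0.06 (-0.03 after trend subtraction). Of the 18 at or above the median level 0 reached 1.5-fold (Gadd45b did so, lower, after trend subtraction). Of all genes at that level 3.64% were 1.5-fold higher and 4.63% lower, so 0 of 18 is near those shares. The C/EBP factor genes Cebpb and Cebpd, which act on acute-phase promoters, stood at -0.22 and -0.18. Among those 18 the lowest were Gadd45b, a stress-response gene, at -0.53 and the kinase gene Pim1 at -0.46. The highest of them were Vegfa, the vascular growth factor gene, at 0.38 and Fos at 0.29.

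NF-kB genes other than Nfkbia went both ways, from -0.37 to 0.58. The 18 measured genes, 10 higher and 8 lower, had a median of 0.03. Of the 13 at or above the median level 0 reached 1.5-fold. Such a count is near the shares of all genes at that level, 3.64% higher and 4.63% lower. Nfkbiz stood at -0.37, the inhibitor gene Tnfaip3 at -0.23 and Birc3 at -0.29, while the subunit genes Rela and Rel stood at 0.20 and 0.18. The highest values belonged to 2 dim genes of the list, Nfkbid (8.66 and 13.4) and Nfkbie (11.03 and 15.2).

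Of the inflammatory cytokine and receptor genes, 2 cytokine genes were lower. Il18 read 207 and 61.0, 3.35-fold lower, and Il1a read 64.3 and 19.9, 3.12-fold lower. The receptor gene Il17rc and the cytokine gene Il17a were lower too, at -0.50 and -0.39. Il33, another cytokine gene of the list, stood at 0.05. Il1b read 11.7 and 12.4, below the median of both arrays, and Tnf 10.7 and 16.3. The receptor genes Il1r1 and Il1r2 stood at 0.44 and 0.43. The 22 measured genes, 15 higher and 6 lower, had a median of 0.07, and 10 of the 22 were at or above the median level.

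Complement, to which the unmeasured C3 belongs, had 23 measured genes, 11 higher and 11 lower, with a median of 0.00. C1qa, of the classical pathway, stood at 0.51, and Cd55, an inhibitor on cell surfaces, at 0.33. The inhibitor genes Serping1 and Clu stood at -0.29 and -0.30. At 1.5-fold 0 of the 7 at or above the median level differed, near the shares of all genes there, 3.64% higher and 4.63% lower.

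Of the receptors and partners of the acute-phase proteins, 13 of 16 measured genes were higher and 3 lower, where 49.5% of all genes were higher. The median was 0.28 (0.11 with a pseudocount of 16). All 6 at or above the median level were higher, where 59.4% of all genes were, and the other 10 were dimmer. Macrophage markers were higher too, 9 of 11, with Cd163 and Itgam in both lists, and their part in this was not tested. Cd36, a scavenger receptor gene also known from fat cells, read 119 and 181, or 1.52-fold higher. Slc22a17, which encodes a lipocalin 2 receptor, stood at 0.41, Itgb2 at 0.20 and Scarb1, a receptor gene for lipoproteins and serum amyloid A, at 0.16. The lowest difference of the list was that of Tlr2, which read 16.3 in saline and 10.9 after FGF18. It passed from above to below the array's median.

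Iron genes, which relate to Lcn2, Hp and Cp, split. Slc39a14, a zinc and iron importer known as an IL-6 response gene of liver, read 32.6 and 62.7, 1.90-fold higher, and Tfrc, the transferrin receptor gene, was 1.46-fold higher. Slc11a2, the ferrous iron transporter gene, read 50.4 and 23.7, 2.08-fold lower, and Hmox1, the haem oxygenase gene, 69.8 and 42.0, 1.65-fold lower. The median over 15 measured genes was 0.02.

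Glucocorticoids strengthen many acute-phase responses, and their target Pdk4 was among the 5 genes named as nearest to Saa3. All 13 genes of this list were at or above the median level. Of them 9 lay above 0 and 4 below, where 59.4% of all genes at that level were higher. The median was 0.18 (0.10 after trend subtraction), and over all genes at that level it was 0.07. At 1.5-fold 2 of the 13 were higher, where 3.64% of all genes were. Pdk4 was 3.09-fold and Zbtb16 1.83-fold higher, whereas Errfi1 and Sgk1 stood at -0.45 and -0.37. Earlier results of these data had already shown this group.

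**Figure D4:**
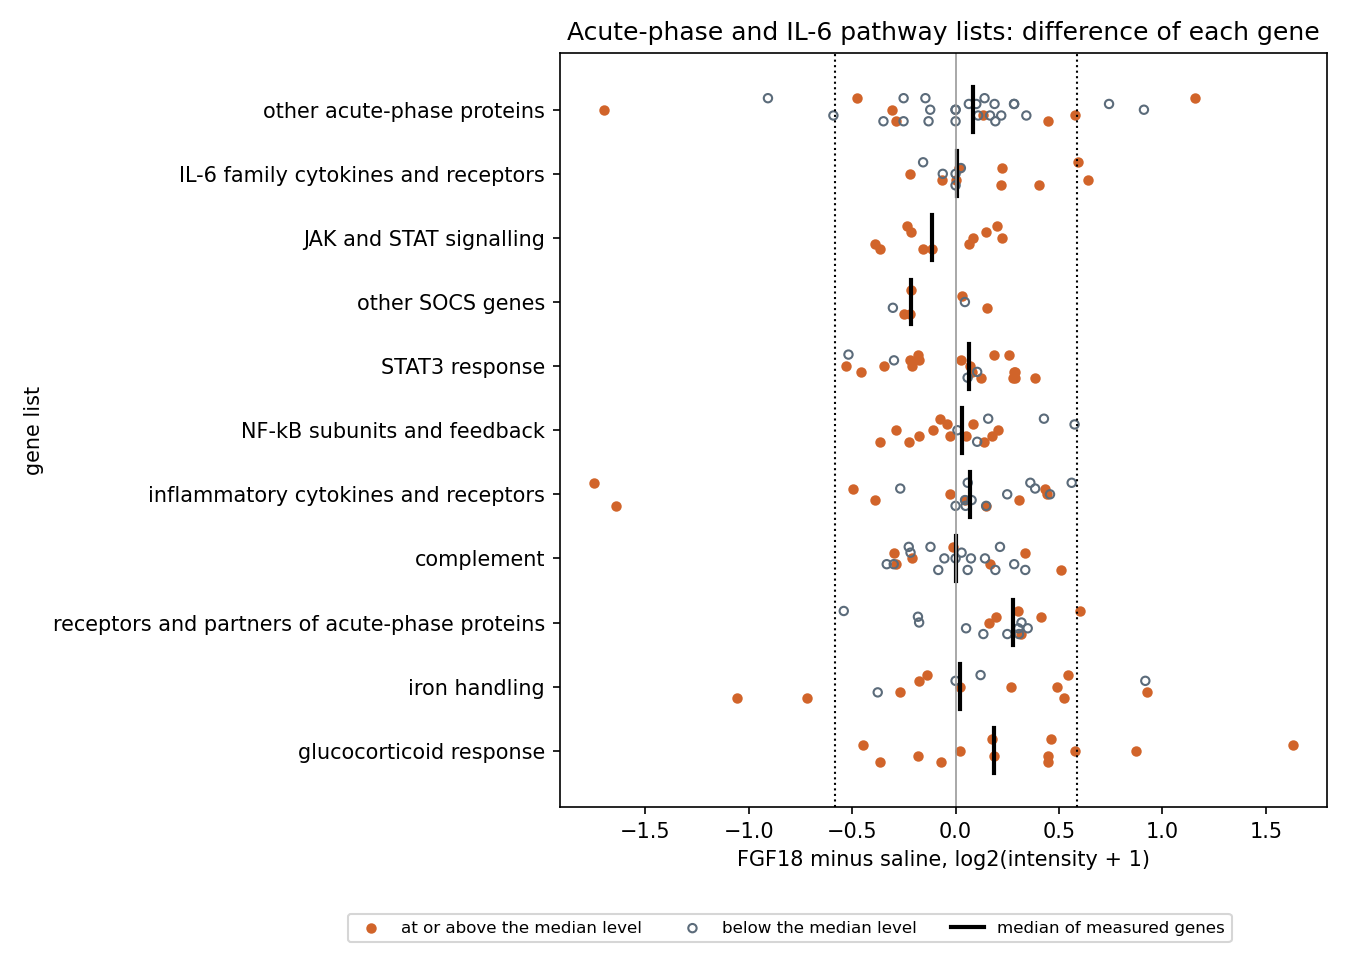
Difference (FGF18 minus saline, log2(intensity + 1)) of every measured gene in the 11 lists, filled where the gene's mean reached the median level and open where it did not, with bars at list medians and dotted lines at 1.5-fold. List medians lie between -0.21 (other SOCS genes) and 0.28 (receptors and partners), and Serpina3n (1.16) and Orm1 (-1.70) lie far apart within 1 list.

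Markers of cells that can carry these transcripts differed between the arrays as well, and their part in the differences was not tested. In whole skin, fewer cells of a type and less RNA per cell cannot be told apart. Of 11 macrophage markers 9 were higher, where 49.5% of all genes were, with a summed intensity of 235 in saline and 308 after FGF18. Lyz2 read 54.6 and 81.4, Csf1r 27.0 and 27.9, and Cd163, which was lower, 12.7 and 11.1. Of the 6 at or above the median level 0 reached 1.5-fold, where 3.64% of all genes at that level were higher and 4.63% lower. The defining markers Adgre1 (6.82 and 12.4) and Cd14 lay below both array medians. Of 11 neutrophil markers 5 were higher and 5 lower, the sums were 117 and 108, and 10 of the 11 were below the median of both arrays, S100a8 and S100a9 included. Of 10 adipocyte markers 3 were higher and 7 lower, with sums of 976 and 1080. Among the higher were Plin4 (29.0 and 60.0, 2.03-fold) and Fabp4 (371 and 545, 1.47-fold). Among the lower were Retn (73.7 and 50.1) and Adipoq (-0.10).

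Markers of the outer epidermal layers showed the opposite direction to Saa3. All 12 suprabasal and cornified keratinocyte markers were lower, with a summed intensity of 18878 in saline and 4807 after FGF18, and the lower values of Il18, Il1a and Orm1 had the same direction. Of 8 inner root sheath markers 7 were higher, with sums of 3128 and 6173. Of 5 basal keratinocyte markers 4 were higher, with a median of 0.14. The brightest of them, Krt14, read 575 and 328, 1.75-fold lower. The basal sums were 971 and 801, and Krt5 was not measured. Endothelial markers had a median of 0.21 over 7 genes but of -0.43 over the 3 at or above the median level. Fibroblast markers had a median of -0.29 over 8 and skeletal muscle markers one of -0.10 over 9. Defining transcripts of skin were bright, with Krt10 at 5892 and 1799 and Col1a1 at 408 and 323. Hepatocyte markers were dim, with 8 of 10 below the median of both arrays and Alb, the albumin gene, at 10.7 and 9.78. T cell markers had sums of 61.1 and 62.5 over 6 genes and mast cell markers sums of 63.7 and 64.0 over 6.

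**Figure D5:**
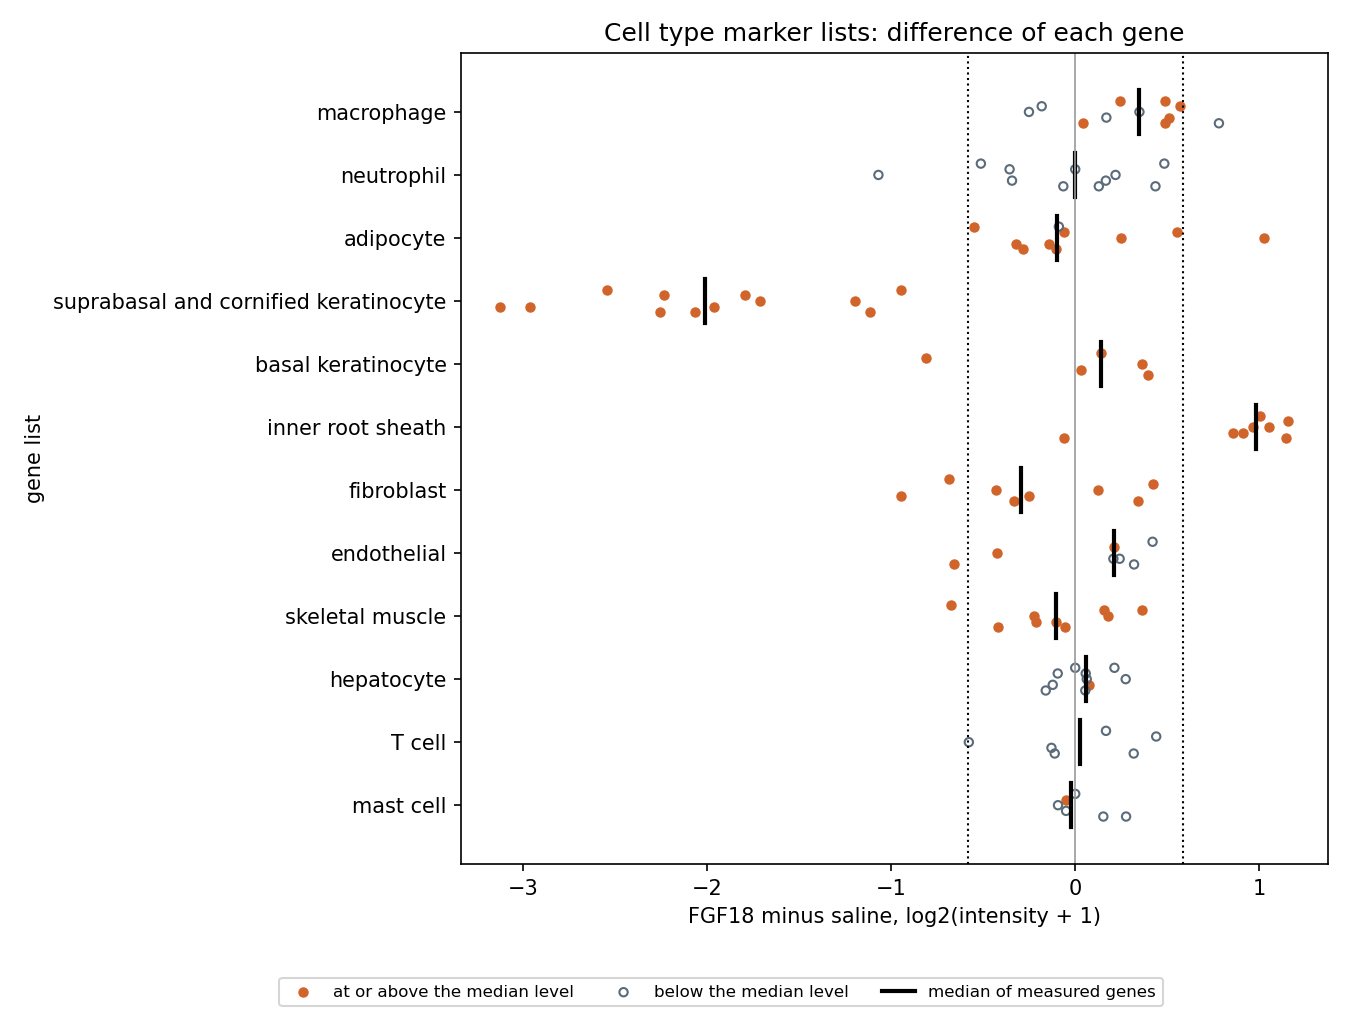
Difference (FGF18 minus saline, log2(intensity + 1)) of every measured marker in 12 lists of cell types, drawn as filled points at or above the median level and open points below it, with bars at list medians and dotted lines at 1.5-fold. Suprabasal keratinocyte markers lie between -3.12 and -0.95, and macrophage markers between -0.25 and 0.78.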

How the data were processed

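RNA from back skin was hybridised to GeneChip Mouse Gene 2.0 ST arrays, 1 per group. The submitters' processing notes name Affymetrix Expression Console and RMA, with no version. The deposited values were taken as intensity on a linear scale from their range, 1.39 to 11532. Log2 values with a pseudocount of 1 were computed from them. Of 41345 transcript clusters 23521 carried exactly 1 symbol, and averaging those of a symbol gave 22180 genes. Counts used 1.5-fold and the 11090 genes whose mean log2 reached the median, 4.15. A single array a group allows no test, SD or p-value and limits the precision.

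Named were all members, the 5 genes nearest to Saa3 in difference, the 2 highest and 2 lowest genes of each pathway list at that level and a preset set, of which Nfkb1 had no single-symbol cluster. The choice of the 5 nearest left out predicted, RIKEN, microRNA and small nucleolar genes. Named after their values were seen were the single markers, neighbouring genes, the dim genes of the closing section and other genes outside this rule. The members and lists were chosen with earlier results of these data known. Promoters came from RefSeq (GRCm38.p6), with motifs and windows chosen after the values were seen. Alternatives were pseudocounts of 16 and none, the brightest cluster, clusters of several symbols, centring, a loess trend (span 0.3), no level filter or the 75th percentile, and 2-fold. The gene averaging and 1.5-fold calls were tested on simulated 2-fold changes in genes well above the median level, which left out dim genes and Saa3. Promoter and trend steps were not part of that test. The software was Python 3.11.15, pandas 2.3.3, statsmodels 0.14.6 and Biopython 1.88.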

Additional observations from a re-analysis of the deposited data

How the results depend on the processing

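Saa3 kept its direction and stayed past 1.5-fold under the 6 alternatives for values, at 1.67 to 2.40 on the log2 scale. Choosing the brightest cluster, counting clusters of several symbols and centring could not move Saa3 and left it at 2.33. Saa3 had 1 single-symbol cluster and no shared one, and the median difference over genes was 0.00. The low end, 1.67, came with a pseudocount of 16, which by construction shrinks differences of dim genes. The other members stayed within 0.24 of their reported differences, and Hp stayed under 1.5-fold, at 1.35-fold to 1.47-fold. Il6 changed sign (-0.04 to 0.03). The count of members 1.5-fold higher remained 1, and of members lower 0, under the 9 alternatives run. Of the pathway list genes, 7 were 1.5-fold higher, but 4 with a pseudocount of 16 or after trend subtraction, and 2 at 2-fold. The 5 lower genes became 3 with a filter at the 75th percentile of level, and 7 after trend subtraction (which added Gadd45b and Il17rc) or with no filter. With a pseudocount of 16, Orm1, Il1a and Slc11a2 stood at -1.44, -1.16 and -0.74. No paired analysis was possible because each group had 1 array, and for the same reason no replicate could be left out. Dim genes are limited by signal over background: Saa2, Cp and Il6 lay below the median of both arrays.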

Other observations

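Of the pathway genes too dim for the counts above, 5 passed the 1.5-fold threshold on the log2(intensity + 1) scale. Lbp, the gene of the lipopolysaccharide-binding protein of the acute phase, read 10.4 in saline and 20.4 after FGF18, so it passed from below to above the array's median. Steap3, which encodes a reductase of endosomal iron, did the same at 8.78 and 17.5. Orm2 read 4.97 and 8.99, while the related gene Orm3 read 11.98 and 5.92 and Fgl1 read 9.74 and 6.13, all below the median of both arrays. They were picked after their values were seen, and no fold is given because each was below its array's median on at least 1 array.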
